A study of Homo sapiens with 16 samples.

Results

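The genes described here are TERT, 4 genes whose products join it in the telomerase enzyme (DKC1, NOP10, NHP2 and WRAP53), and 5 genes of shelterin, the protein complex that covers chromosome ends (TERF1, TERF2, TERF2IP, POT1 and TINF2). TERT was chosen by its fall with 2 inhibitors given together, in each of 2 cell lines. Its values are therefore a description and carry no test. The other 9 genes were named for their roles beside TERT, with earlier results of these data known. All 10 were on the array, of 21420 gene names on it that RefSeq holds, and 16 probes carried their names.

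The cells were RPMI-8226 and MM.1S, 2 long-used lines from human multiple myeloma, which is a cancer of plasma cells. GSK126 inhibits EZH2, the enzyme that methylates lysine K27 of histone H3, and UNC0638 inhibits G9a, the product of EHMT2, which methylates lysine K9. Each line was kept for 6 days in the solvent DMSO, in GSK126 at 1 µM, in UNC0638 at 1 µM, or in the 2 inhibitors at 1 µM each, called the combination here. Each of these 8 groups had 2 biological replicates, and RNA of each culture was put on 1 array, 16 in all.

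Telomerase is a reverse transcriptase that copies its RNA template, TERC, onto chromosome ends as telomere repeats. TERT is its catalytic protein and is silent in most differentiated cells, while most tumours express it. Shelterin binds the repeats, keeps chromosome ends from being repaired as breaks, and controls how telomerase reaches them.

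Levels are log2 spot intensities minus the log2 of the 75th percentile of the same array, so that 0 is the brightness at that percentile and a step of 1 is a 2-fold change in brightness. On each array 58717 spots were not controls, and between 46.5% and 52.8% of them were above background. A probe was kept in a line if in 1 group or more both replicates were above background, which left 23196 probes in RPMI-8226 and 25100 in MM.1S, and 13 and 14 of the 16 member probes. Differences were tested in limma, which fits a linear model to each probe and shares information on the spread across probes, with 8 arrays per line. The p values were adjusted over all kept probes by the method of Benjamini and Hochberg, and a probe was called higher or lower at an adjusted p under 0.05. Where a gene had several probes the brightest stood for it. With 2 arrays per group the estimates are of low precision, and a scale set on each array removes any change that most probes share.

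All 10 members had a probe above background on all 16 arrays. The TERT probe was printed in 10 spots of each array, of which 9 were used on 3 arrays, and all used spots were above background. In MM.1S with the combination, where TERT was dimmest, its spots had intensities from 36.5 to 58.5. The probe of DKC1 lies at chrX:154005587-154005646 on the plus strand in GRCh37, that of NHP2 at chr5:177576468-177576527 on the minus strand, and that of NOP10 at chr15:34634020-34634079 on the minus strand. These 3 genes had 1 probe each, as had 8 of the 10 members.

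In RPMI-8226 the level of TERT was 1.88 and 2.63 with DMSO, 1.11 and 1.93 with GSK126, 1.05 and 1.53 with UNC0638, and -1.14 and 0.41 with the combination, replicate 1 first. Both arrays of the combination were below all 6 others of this line. The arrays of GSK126 overlapped those of DMSO and those of UNC0638, while UNC0638 and DMSO did not overlap. Replicate 2 was the higher array in all 4 groups, by 1.55 with the combination. In MM.1S the level of TERT was 0.22 and -0.01 with DMSO, -0.02 and -0.05 with GSK126, -2.24 and -2.71 with UNC0638, and -3.25 and -3.23 with the combination. Here both groups given UNC0638 were far below the other 2. None of the 4 groups overlapped, but DMSO and GSK126 almost met. The lower DMSO array was at -0.0128 and the higher GSK126 array at -0.0163. The spots of that DMSO array had a standard deviation of 0.152, so the order of DMSO and GSK126 is not settled. Across lines the group means ran downward from 2.26 in RPMI-8226 with DMSO through 1.52 with GSK126 and 1.29 with UNC0638, to 0.10 in MM.1S with DMSO and -0.03 with GSK126, then -0.36 in RPMI-8226 with the combination, and last -2.48 in MM.1S with UNC0638 and -3.24 with the combination. Besides the neighbours already named, MM.1S with GSK126 and RPMI-8226 with the combination overlapped in this order. The range of the latter also held both MM.1S arrays with DMSO, which are not its neighbours.

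**Figure D1:**
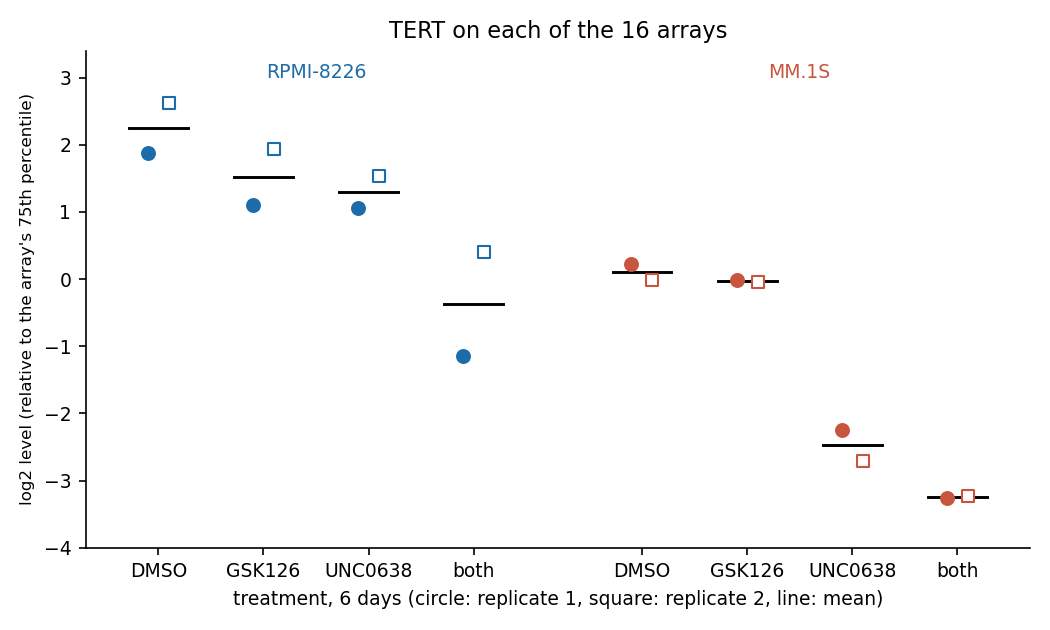
Level of TERT on each of the 16 arrays, as log2 intensity relative to the 75th percentile of the array. Circles are replicate 1, squares replicate 2, and lines group means.

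Against DMSO the combination had TERT at -2.62 in RPMI-8226 and -3.35 in MM.1S. Paired by replicate number, the DMSO array was 8.12-fold and 4.65-fold brighter in RPMI-8226, and 11.1-fold and 9.29-fold brighter in MM.1S. Over all other settings of the calculation the difference stayed between -3.39 and -1.85 in RPMI-8226 and between -3.48 and -2.31 in MM.1S. Against GSK126 alone the combination had TERT at -1.88 in RPMI-8226 and -3.21 in MM.1S, and against UNC0638 alone at -1.66 and -0.76, the last of which was -0.38 under normexp background correction.

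The single inhibitors are measured against the same DMSO arrays that chose TERT, so their values are a description too. With UNC0638 alone TERT was at -2.58 in MM.1S, and at -2.47 and -2.70 when paired by replicate number. With GSK126 alone it was at -0.14 in MM.1S, and at -0.24 and -0.04 by pair. In RPMI-8226 TERT was at -0.74 with GSK126 and -0.96 with UNC0638, with both replicate pairs in the same direction each time. The DMSO replicates of this line lay 0.75 apart.

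Of the 9 other members, 5 were called lower and 0 higher with the combination in MM.1S, where 31.5% of all probes were called lower and 22.2% higher, and 5 had an unadjusted p under 0.05. Lower calls were therefore common in this comparison at large. The median difference of the 9 was -0.33, against -0.12 for all kept probes, and 8 of the 9 were below DMSO. In RPMI-8226 0 of 9 were called in either direction by limma, where 5.45% of all probes were called lower and 7.1% higher, and 0 had an unadjusted p under 0.05. There the median of the 9 was -0.17, against -0.14 for all probes, and 7 of the 9 were below DMSO. The count of 5 in MM.1S was 3 without replicate 2 of DMSO (DKC1, NHP2 and WRAP53) and 3 without replicate 1 of the combination (DKC1, NHP2 and TERF1). The scale mattered too. With the percentile taken only over probes detected on all 16 arrays, the median of all probes moved by 0.15 in RPMI-8226 and 0.21 in MM.1S, and the higher share of the calls went from 56.6% to 76.7% in RPMI-8226 and from 41.3% to 60.6% in MM.1S. Directions below are relative to the percentile over all spots, and under the other percentile 2 of the 9 were called lower in MM.1S, where 20.0% of all probes then were.

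**Figure D2:**
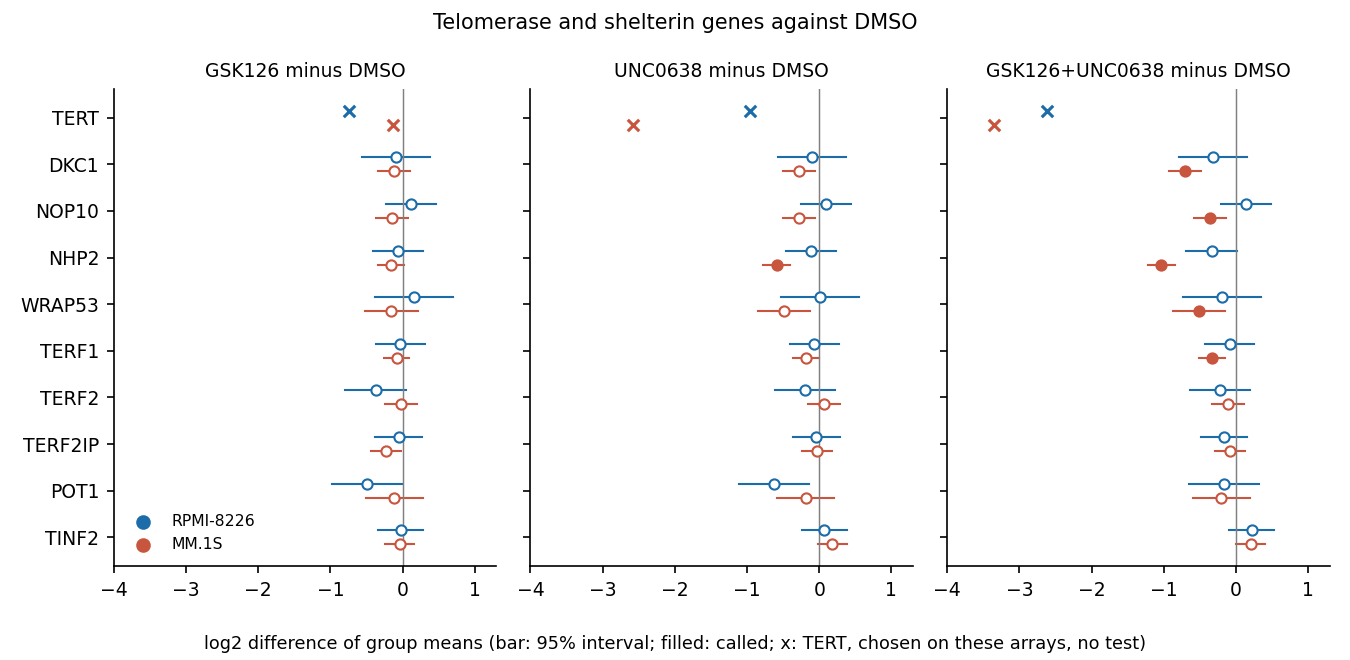
Difference of each member from DMSO with GSK126, UNC0638 and the combination in the 2 lines, with 95% intervals where a test was made. TERT carries no interval because it was chosen on these arrays.

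DKC1 makes dyskerin, which binds TERC and keeps it stable. In MM.1S DKC1 was at 4.66 and 4.49 with DMSO, 4.48 and 4.45 with GSK126, 4.33 and 4.26 with UNC0638, and 3.92 and 3.84 with the combination. The combination arrays were the lowest 2 and did not overlap any other group. DKC1 fell by 0.70 with the combination (SE 0.09, limma adjusted p 0.00152), and all 19 other settings called it too, with adjusted p from 3.63e-05 to 0.0159. In RPMI-8226 DKC1 was at 5.79 and 5.51 with DMSO and 5.10 and 5.55 with the combination. These 2 groups overlapped, and the difference was -0.32 (SE 0.20, adjusted p 0.301).

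NHP2 sits beside dyskerin in the same particle. In MM.1S NHP2 was at 6.67 and 6.63 with DMSO, 6.48 and 6.50 with GSK126, 6.11 and 6.02 with UNC0638, and 5.60 and 5.63 with the combination. No 2 of these groups overlapped, and the order was that of the TERT group means in this line. For DMSO and GSK126 that order rests on TERT arrays that almost met. The share of all probes with such an order is not given. NHP2 fell by 1.03 with the combination (SE 0.08, limma adjusted p 3.14e-04), and every other setting called it, with adjusted p from 1.49e-06 to 0.00442. In RPMI-8226 NHP2 was at 6.69 and 6.49 with DMSO and 6.29 and 6.21 with the combination. The groups did not overlap, but the difference of -0.34 (SE 0.15, 95% interval -0.69 to 0.01) was not called, with adjusted p 0.169. A single fit over both lines called it at adjusted p 0.0343, the lowest of a range that reached 0.808.

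The lines differed in NHP2 with the combination by 0.70 (SE 0.15, 95% interval 0.37 to 1.02, adjusted p 0.0138 in limma over 16 arrays), so the fall was deeper in MM.1S. It was the only 1 of the 9 members called higher in RPMI-8226 relative to MM.1S, where 7.39% of all probes were, and 2 of 9 had an unadjusted p under 0.05. Without replicate 1 of DMSO in MM.1S the difference was 0.67 with adjusted p 0.0557 and the count was 0, and over all settings the adjusted p ran from 0.00287 to 0.0557. NOP10 differed by 0.50 (SE 0.15, adjusted p 0.0579) and was called with replicate number as a block (0.0279) and with a trended prior (0.0225), in a range from 0.0225 to 0.232. DKC1 differed by 0.38 (SE 0.21, adjusted p 0.273), so a difference between lines was neither shown nor excluded by its call in MM.1S alone. For GSK126 the count was 0 of 9 in limma, with 0 at an unadjusted p under 0.05, where 0.253% of all probes were called higher. For UNC0638 it was 0 of 9, with 2 at an unadjusted p under 0.05, where 0.969% were. Each slide held 1 line, so that slide and line cannot be told apart.

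NOP10 and WRAP53 were called in MM.1S with less margin. NOP10, a small protein that locks the particle together, was at 6.30 and 6.34 with DMSO and 5.91 and 6.01 with the combination, which did not overlap. It fell by 0.36 relative to the percentile over all spots (SE 0.09, limma adjusted p 0.0172), while quantile normalization put it at 0.12, and over all settings its adjusted p ran from 0.00205 to 0.274. It was not called under the percentile over detected probes (0.203), with no filter (0.0597), or without replicate 1 of DMSO (0.0565), replicate 2 of DMSO (0.0752) or replicate 1 of the combination (0.0720). WRAP53, which brings telomerase to Cajal bodies, was at -1.32 and -1.56 with DMSO and -1.88 and -2.02 with the combination, again without overlap. It fell by 0.51 (SE 0.15, limma adjusted p 0.0296, range 0.0118 to 0.149) and was not called under the percentile over detected probes (0.149), with no filter (0.0842), in a single fit over both lines (0.0634), without replicate 1 of DMSO (0.141) or without replicate 1 (0.0587) or replicate 2 (0.127) of the combination. In RPMI-8226 NOP10 was at 0.14 (adjusted p 0.550) and WRAP53 at -0.19 (adjusted p 0.600). All 4 telomerase partners were called lower in MM.1S, where 31.5% of all probes were, with a median of -0.60 against -0.12, but only the calls of DKC1 and NHP2 held in every setting.

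**Figure D3:**
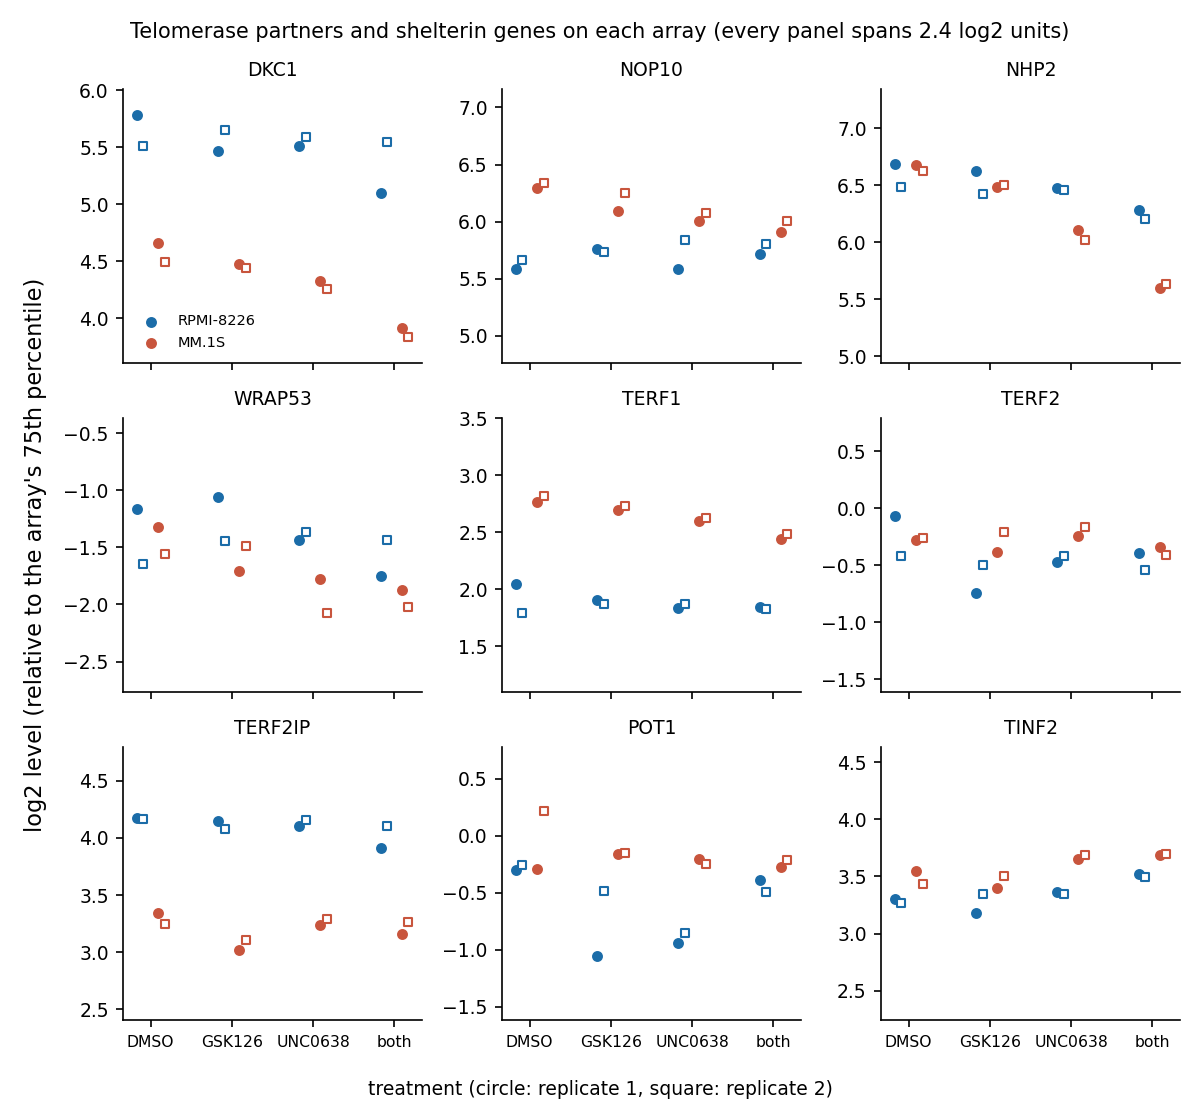
Level of the 9 members other than TERT on each of the 16 arrays, as log2 intensity relative to the 75th percentile of the array. Levels of different genes cannot be compared because each probe has its own brightness.

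Of the 5 shelterin genes 1 was called lower in MM.1S with the combination, where 31.5% of all probes were, and their median of -0.11 was close to the -0.12 of all probes. TERF1, which binds the double-stranded repeats, was at 2.77 and 2.82 with DMSO, 2.70 and 2.73 with GSK126, 2.60 and 2.62 with UNC0638, and 2.44 and 2.49 with the combination. The 4 groups stood in the order of the TERT groups and did not overlap, over a small distance. How many of all probes stood in that order is not given. TERF1 fell by 0.33 (SE 0.07, limma adjusted p 0.0109, range 0.00214 to 0.232), and was not called under the percentile over detected probes (-0.11, adjusted p 0.232), under quantile normalization (-0.14, adjusted p 0.146) or without replicate 2 of DMSO (0.0550). A second TERF1 probe was also called lower, by 0.44 with adjusted p 0.00809, and others of its probes were at -0.26 and -0.21 and were not called. A last TERF1 probe was below background with the combination, at least 1.58-fold lower than with DMSO, and was not called (adjusted p 0.0720). In RPMI-8226 the brightest TERF1 probe was at -0.08 (adjusted p 0.713).

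The other 4 shelterin genes were not called in either line with the combination. TERF2, which also binds double-stranded repeats and holds the end in a loop, was at -0.11 in MM.1S (limma adjusted p 0.364) and -0.22 in RPMI-8226 (0.421). TERF2IP, the partner of TERF2 known as RAP1, was at -0.09 in MM.1S (adjusted p 0.427) and -0.17 in RPMI-8226 (0.436). POT1, which binds the single-stranded overhang, was at -0.20 in MM.1S (adjusted p 0.332), with its DMSO arrays at -0.29 and 0.21. Without replicate 1 of DMSO POT1 was at -0.45 in MM.1S and called (adjusted p 0.0196, range 0.0196 to 0.959). In RPMI-8226 it was at -0.16 (adjusted p 0.608). TINF2, which ties the 2 DNA-binding proteins together, was the only member above DMSO in MM.1S, at 0.20 (adjusted p 0.0849, range 0.00336 to 0.302). It was called higher under quantile normalization (0.51), under the percentile over detected probes (0.42) and with a trended prior (0.20), and stood at 0.22 in RPMI-8226 (adjusted p 0.287).

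With UNC0638 alone 1 of 9 members was called lower in MM.1S, where 16.7% of all probes were called lower and 12.8% higher, and 5 had an unadjusted p under 0.05. That gene was NHP2, which fell by 0.59 (SE 0.08, limma adjusted p 0.00506, called in all settings, range 1.34e-04 to 0.0358). Next came WRAP53 at -0.49 (adjusted p 0.0553), DKC1 at -0.28 (0.0620) and NOP10 at -0.28 (0.0651), none of them called. Without replicate 1 of DMSO the count was 2, with POT1 added at adjusted p 0.0483. Other settings called up to 4. Normexp added WRAP53 (0.0362) and DKC1 (0.0449), and the filter on all 8 arrays WRAP53 (0.0386) and DKC1 (0.0488). A trended prior added WRAP53 (0.0365), DKC1 (0.0159) and NOP10 (0.0153). Lower calls over all 25100 probes went from 4193 to 4732 under normexp, 5252 with a trended prior and 3084 under quantile normalization. With the filter on all 8 arrays they were 4601 of 21744. Quantile normalization added WRAP53 (0.0475), and called TINF2 higher (0.0269), as did the percentile over detected probes (0.0431). With GSK126 alone limma called 0 of 9 in MM.1S, where 2.42% of all probes were called lower and 5.06% higher, and 1 had an unadjusted p under 0.05. In RPMI-8226 GSK126 gave 0 of 9 in limma, where 0.056% of all probes were called lower and 0.543% higher, and UNC0638 gave 0 of 9, where 0.0819% were called lower and 0.556% higher. In each of these 2 comparisons 1 of 9 had an unadjusted p under 0.05. Few probes of any kind passed there, so that the 0 counts say little about the members.

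Against GSK126 alone the combination had 3 of 9 members lower in MM.1S, where 21.5% of all probes were called lower. They were NHP2 at -0.87 (SE 0.08, limma adjusted p 0.00150), DKC1 at -0.59 (SE 0.09, adjusted p 0.00575) and TERF1 at -0.25 (SE 0.07, adjusted p 0.0424). NHP2 and DKC1 kept the call in all settings, while TERF1 lost it when any 1 of the 8 arrays was left out (0.0654 to 0.152) and in 6 further settings, and had a range from 0.0148 to 0.247. Under quantile normalization and under the percentile over detected probes TERF1 was among those lost, and TINF2 (0.47 and 0.37) and TERF2IP (0.33 and 0.27) were called higher. Normexp and a trended prior also called TINF2 higher (0.25 and 0.24), and a trended prior called NOP10 lower (-0.21). Against UNC0638 alone it had 2 of 9 lower in MM.1S, where 7.02% of all probes were. NHP2 fell by 0.45 (SE 0.08, limma adjusted p 0.0236, range 0.00177 to 0.120), and was not called without replicate 1 (0.120) or 2 (0.0746) of UNC0638 or replicate 1 (0.0624) or 2 (0.0894) of the combination, nor under quantile normalization (-0.28, adjusted p 0.0767), with no filter (0.0863) or with only the compared groups (0.0947). DKC1 fell by 0.42 (SE 0.09, adjusted p 0.0396, range 0.00523 to 0.164), and lost the call when any 1 of the 8 arrays was left out (0.0522 to 0.164) and in 5 further settings, quantile normalization among them (-0.26, adjusted p 0.103). In RPMI-8226 limma called 0 of 9 against GSK126 alone, where 0.573% of all probes were called lower, and 0 of 9 against UNC0638 alone, where 0.673% were, with 0 at an unadjusted p under 0.05 in both.

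GAR1, the remaining core protein of the particle that holds DKC1, NHP2 and NOP10, and the RNA TERC were singled out for their roles after their values had been seen. GAR1 in MM.1S was at 4.88 and 4.72 with DMSO, 4.65 and 4.61 with GSK126, 4.27 and 4.21 with UNC0638, and 3.83 and 3.89 with the combination. As for NHP2, no groups overlapped and the order was that of TERT, a pattern whose share among all probes is not given. GAR1 fell by 0.94 with the combination in MM.1S (SE 0.09, limma adjusted p 5.63e-04) and stood at -0.32 in RPMI-8226 (SE 0.18, adjusted p 0.264). TERC fell by 0.64 in MM.1S (SE 0.13, adjusted p 0.00773) and stood at -0.14 in RPMI-8226 (SE 0.16, adjusted p 0.603).

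The 2 lists nearest to the members in role were read next. Of 15 genes for telomerase assembly and RNA processing, 10 were called lower and 3 higher in MM.1S with the combination, against 31.5% and 22.2% of all probes, with a median of -0.63 against -0.12. Among the lowest of them was RUVBL2, an ATPase that helps assemble dyskerin particles, which fell by 1.37 in MM.1S (SE 0.12, limma adjusted p 4.45e-04) and by 0.84 in RPMI-8226 (SE 0.20, adjusted p 0.0405, range 0.00426 to 0.178). RUVBL2 was the 1 gene of this list called in RPMI-8226, where 5.45% of all probes were, 3 of 15 had an unadjusted p under 0.05 and the median was -0.26, and of the 8 arrays left out in turn it kept the call only without replicate 2 of the combination (0.0505 to 0.178 without the others). It also lost the call in 4 further settings, quantile normalization (0.0670) and the percentile over detected probes (0.0665) among them. Of 21 genes for end capping and telomere replication, 12 were called lower and 3 higher in MM.1S with a median of -0.45, beside the same 31.5% and 22.2% of all probes, and the 3 became 1 without replicate 1 of DMSO or replicate 1 of the combination. In RPMI-8226 this list had 2 called lower, CTC1 and RTEL1, where 5.45% of all probes were, a median of -0.28 against -0.14, and 6 with an unadjusted p under 0.05. CTC1, of the complex that caps the strand telomerase extends, was at -0.77 in RPMI-8226 (SE 0.16, limma adjusted p 0.0291, range 0.00114 to 0.142) and -0.45 in MM.1S (SE 0.08, adjusted p 0.00458). RTEL1, a helicase that opens telomere loops, was at -0.79 in RPMI-8226 (SE 0.20, limma adjusted p 0.0468, range 0.00616 to 0.212) and -0.98 in MM.1S (SE 0.12, adjusted p 0.00133).

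Both RPMI-8226 calls of the capping list were lost without replicate 1 or 2 of DMSO, of UNC0638 or of the combination, so that the count was then 0, with adjusted p from 0.0666 to 0.142 for CTC1 and from 0.0837 to 0.212 for RTEL1. Both were also lost under the percentile over detected probes (0.0533 and 0.0910), with no filter and with only the compared groups, and RTEL1 under quantile normalization (0.0539). With replicate number as a block this count was 4, the 2 added genes being ACD and WRN, but lower calls over all 23196 probes also went from 1264 to 2494. ACD makes TPP1, the sixth shelterin protein, which the rule for the members did not name, and it was singled out after its value had been seen. It fell by 0.84 in MM.1S (SE 0.09, limma adjusted p 7.21e-04) and was at -0.66 in RPMI-8226 (SE 0.19, adjusted p 0.0651, called in 4 other settings, with the block at 0.0360, range 0.00730 to 0.240). ACD was at 3.94 and 3.95 with DMSO in MM.1S and 3.09 and 3.12 with the combination, and at 5.34 and 4.96 against 4.47 and 4.51 in RPMI-8226. The 2 groups were apart in both lines.

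**Figure D4:**
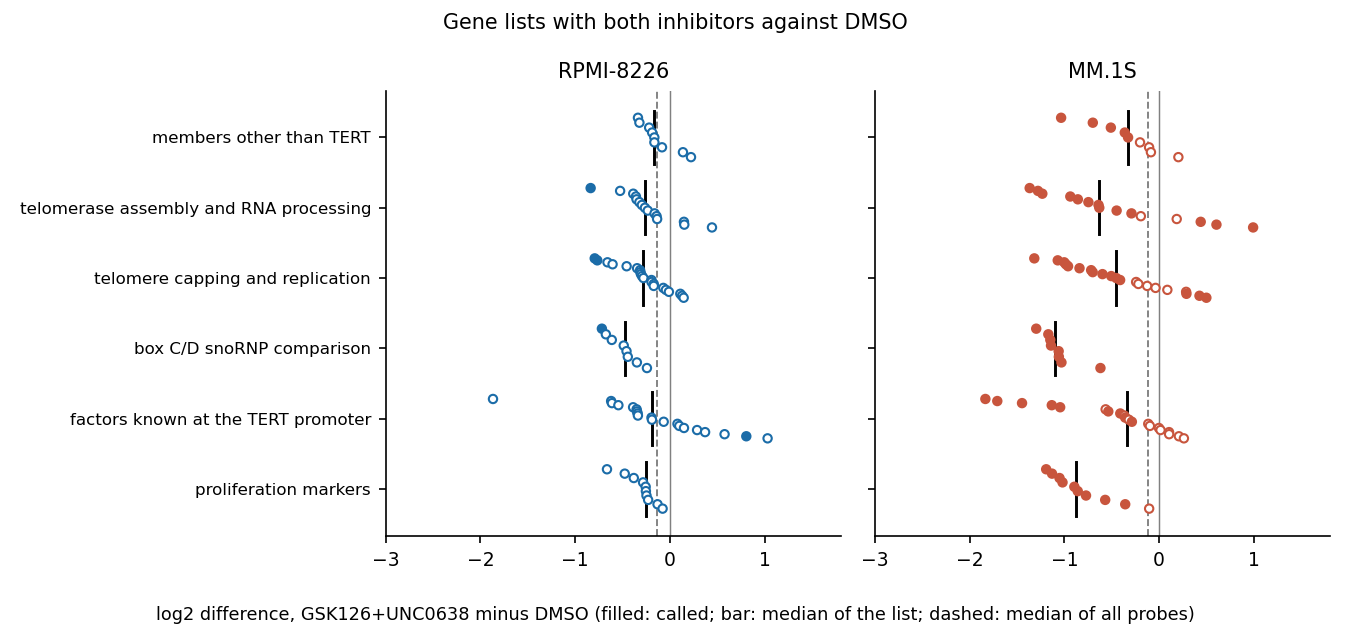
Differences from DMSO with the combination for the genes of each list in the 2 lines, with called genes filled. Black bars are list medians and the dashed line is the median of all kept probes.

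Because dyskerin particles also serve ribosome production, 8 genes of the box C/D particle and the nucleolus were read beside them. All 8 were called lower in MM.1S with the combination, where 31.5% of all probes were, with a median of -1.10, and all 8 with UNC0638 alone, where 16.7% were, with a median of -0.62, which became 5 without replicate 1 of DMSO or replicate 2 of UNC0638. In RPMI-8226 with the combination the median was -0.47, 1 of 8 was called lower, beside 5.45% of all probes, and 7 had an unadjusted p under 0.05. That gene was NHP2L1, a relative of NHP2 in the box C/D particle, at -0.72 (SE 0.17, limma adjusted p 0.0418, range 0.00279 to 0.199), and it was at -1.14 in MM.1S (SE 0.08, adjusted p 3.08e-04). NHP2L1 lost its call in RPMI-8226 without any 1 of the 8 arrays (0.0541 to 0.199) and in 5 further settings, quantile normalization among them (-0.42, adjusted p 0.116). The count was then 0 for each array but replicate 2 of the combination. With replicate number as a block 3 were called in RPMI-8226, the added 2 being NOLC1 and NOP14, beside 2494 of all 23196 probes.

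Among 21 factors known to act on the TERT promoter, 20 were tested. In MM.1S with the combination 9 were called lower and 0 higher (10 with an unadjusted p under 0.05, median -0.34), where 31.5% and 22.2% of all probes were, and 1 was called higher without replicate 1 of the combination. In RPMI-8226 limma called 1 higher and 0 lower (5 with an unadjusted p under 0.05, median -0.19), where 7.1% and 5.45% of all probes were. The 1 was HIF1A at 0.80 (SE 0.15, adjusted p 0.0194), and the higher count was 0 without replicate 1 or 2 of DMSO or replicate 1 of the combination, while without replicate 2 of the combination 1 was called lower. With replicate number as a block 2 were called higher, with ETS2 added, and 3 lower, namely MYC, GABPB1 and KLF2, beside 2412 higher and 2494 lower of all 23196 probes. KLF2 was at -1.87 in RPMI-8226 (SE 0.72, limma adjusted p 0.132, with the block 0.00129, with a single fit over both lines 0.0339, range 0.00129 to 0.495) and fell by 1.83 in MM.1S (SE 0.12, adjusted p 2.33e-04). TFAP4 was at -0.54 in RPMI-8226 (SE 0.26, adjusted p 0.206) and fell at least 2.38-fold in MM.1S (adjusted p 0.00248), being below background on part of the arrays.

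MYC, an activator of TERT that binds E-boxes, was at 5.81 and 5.60 with DMSO in MM.1S, 5.53 and 5.45 with GSK126, 4.67 and 4.44 with UNC0638, and 4.06 and 3.94 with the combination. The groups did not overlap and followed the order of TERT in this line, and again the share of all probes that did so is not given. MYC fell by 1.71 with the combination in MM.1S (SE 0.12, limma adjusted p 2.94e-04) and by 1.15 with UNC0638 alone (SE 0.12, adjusted p 0.00305). In RPMI-8226 MYC was at 6.91 and 6.90 with DMSO, 6.66 and 6.78 with GSK126, 6.92 and 6.96 with UNC0638, and 6.05 and 6.54 with the combination. Only the combination arrays lay below all others there, and they were far apart. The difference of -0.61 (SE 0.18, limma adjusted p 0.0761, range 0.00482 to 0.301) was not called. It was called in 6 other settings, namely the block (0.0477), normexp background correction (0.0367), a single fit over both lines (0.0154), a trended prior (0.0240), the mean over its probes (0.00482) and without replicate 2 of the combination (0.0447). The lines differed in MYC by 1.09 with the combination (SE 0.22, adjusted p 0.0110 in limma over 16 arrays, called in all 25 settings, range 0.00270 to 0.0483).

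The stretches of DNA before the start of transcription are printed for TERT and for DKC1, NHP2 and NOP10, the core partners called lower beside it in MM.1S. Each is 250 bases long, taken from RefSeq on GRCh38.p14 and read on the strand of the gene, and lies at chr5:1295069-1295318 on the minus strand for TERT, chrX:154762614-154762863 on the plus strand for DKC1, chr5:178153886-178154135 on the minus strand for NHP2, and chr15:34343137-34343386 on the minus strand for NOP10. Capitals mark 3 motifs on either strand, the E-box CACGTG, the GC box GGGCGG and the ETS core CCGGAA.
TERT: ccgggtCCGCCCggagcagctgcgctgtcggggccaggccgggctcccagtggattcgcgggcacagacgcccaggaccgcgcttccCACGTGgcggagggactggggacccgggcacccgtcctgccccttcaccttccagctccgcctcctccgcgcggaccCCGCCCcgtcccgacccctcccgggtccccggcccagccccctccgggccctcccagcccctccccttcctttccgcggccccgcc
DKC1: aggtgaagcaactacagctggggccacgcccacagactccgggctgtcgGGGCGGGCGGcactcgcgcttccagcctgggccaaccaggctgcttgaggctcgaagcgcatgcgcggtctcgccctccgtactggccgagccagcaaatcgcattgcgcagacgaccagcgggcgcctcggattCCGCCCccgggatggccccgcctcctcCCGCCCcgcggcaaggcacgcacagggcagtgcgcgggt
NHP2: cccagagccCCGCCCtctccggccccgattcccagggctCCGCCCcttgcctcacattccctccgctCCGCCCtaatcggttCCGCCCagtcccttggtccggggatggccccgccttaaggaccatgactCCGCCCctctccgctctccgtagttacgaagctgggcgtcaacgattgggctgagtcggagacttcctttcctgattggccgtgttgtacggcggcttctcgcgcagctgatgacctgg
NOP10: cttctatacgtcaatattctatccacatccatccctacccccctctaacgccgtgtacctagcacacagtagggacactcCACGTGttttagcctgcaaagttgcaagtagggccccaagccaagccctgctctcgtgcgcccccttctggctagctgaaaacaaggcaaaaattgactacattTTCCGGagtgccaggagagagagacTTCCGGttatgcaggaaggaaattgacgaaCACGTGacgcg
The TERT window held 1 E-box and 2 GC boxes, that of DKC1 4 GC boxes, that of NHP2 5 GC boxes, and that of NOP10 2 E-boxes and 2 ETS cores. Among all 35116 windows of RefSeq genes, 6.34% held an E-box, 42.6% a GC box and 14.5% an ETS core. A match is a description and neither a site nor a cause. Such windows were used for 8 members, and TERF1 and TERF2 were not among them.

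Of 10 proliferation genes, 9 were called lower in MM.1S with the combination, where 31.5% of all probes were, with a median of -0.88. In RPMI-8226 limma called 0 of 10, where 5.45% of all probes were called lower, with 2 at an unadjusted p under 0.05 and a median of -0.26, and 1 was called lower without replicate 2 of the combination. RRM2, which makes deoxynucleotides, fell by 1.19 in MM.1S (SE 0.22, limma adjusted p 0.00515) and was at -0.25 in RPMI-8226 (SE 0.15, adjusted p 0.310). MCM2, of the replicative helicase, fell by 1.13 in MM.1S (SE 0.17, adjusted p 0.00250) and was at -0.66 in RPMI-8226 (SE 0.17, adjusted p 0.0536). MCM2 was called in RPMI-8226 in 7 other settings, among them the block (0.0384) and without replicate 2 of the combination (0.0375), in a range from 0.0156 to 0.215. CCNB1, cyclin B1, fell by 1.05 in MM.1S (SE 0.09, limma adjusted p 4.55e-04) and was at -0.26 in RPMI-8226 (SE 0.15, adjusted p 0.288). MKI67, the gene of the Ki-67 antigen, fell by 0.57 in MM.1S (SE 0.12, adjusted p 0.00842) and was at -0.25 in RPMI-8226 (SE 0.14, adjusted p 0.244). The lines differed in CCNB1 by 0.79 (SE 0.16, adjusted p 0.0123 in limma over 16 arrays, range 0.00336 to 0.0502), and not without replicate 1 of DMSO in MM.1S (0.0502). RRM2, MCM2 and CCNB1 were named for a large change with the combination in either line, which favours a difference between the lines. The part of the proliferation genes in the TERT result was not tested.

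Of 3 genes listed as drug targets, 2 were called lower in MM.1S with the combination (median of the 3 -0.32), where 31.5% of all probes were. These 2 were EZH2 and EHMT2, and values of the third gene are not given here. In RPMI-8226 limma called 0 of 3, where 5.45% of all probes were called lower, with 1 at an unadjusted p under 0.05 and a median of -0.34. EZH2 fell by 1.10 in MM.1S (SE 0.18, limma adjusted p 0.00349) and was at -0.31 in RPMI-8226 (SE 0.14, adjusted p 0.186). EHMT2 fell by 0.32 in MM.1S (SE 0.10, limma adjusted p 0.0362, range 0.0189 to 0.402, lost in 4 settings that kept all arrays), and the call was lost without any 1 array but replicate 2 of DMSO and replicate 1 of the combination (0.0547 to 0.165). It was at -0.54 in RPMI-8226 (SE 0.22, adjusted p 0.149), called there only by a single fit over both lines (0.0409).

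The samples were bulk RNA, so fewer cells that express a gene and less of its RNA in each cell cannot be told apart. Of 10 plasma-cell genes, 9 were called lower in MM.1S with the combination, where 31.5% of all probes were. In RPMI-8226 3 were called lower and 1 higher, where 5.45% and 7.1% of all probes were, and with replicate number as a block 5 were called lower, with CD38 and MZB1 added, beside 2494 of all 23196 probes. The median was -0.58 in both lines. The summed level of these genes went from 655 and 664 with DMSO to 453 and 458 in MM.1S, and from 321 and 389 to 222 and 277 in RPMI-8226. A sum follows its brightest probe, which in MM.1S was that of XBP1.

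Genes of other cell types were also measured with the combination. In RPMI-8226 the 4 T-cell genes were all called higher, where 7.1% of all probes were, and their summed level went from 0.411 and 0.489 with DMSO to 14.1 and 12.4, where the probe of CD3G was the brightest, and CD3E was not above background with DMSO. In MM.1S 2 of 3 tested T-cell genes were called higher, where 22.2% of all probes were. Of the 5 epithelial and stromal genes 2 were tested in RPMI-8226, EPCAM called lower (-1.31, limma adjusted p 0.0119) and COL1A2 called higher, at least 2.93-fold, while the summed level, which the bright EPCAM probe carried, went from 38.8 and 28.6 to 12.4 and 15.2. In MM.1S EPCAM was called lower, at least 4.36-fold. The sum there, which the PECAM1 probe led, went from 0.733 and 0.901 to 0.755 and 1.11. PECAM1, the other gene tested in MM.1S, was not called, though the block called it higher. Of 2 myeloid genes tested in RPMI-8226 CD14 was called higher (2.65, limma adjusted p 0.00214), with the block also CSF1R, and the sum went from 0.540 and 0.954 to 3.63 and 4.90. In MM.1S only CD14 was tested, and it was not called (-0.03), where 22.2% of all probes were called higher. The myeloid sum there went from 0.151 and 0.153 to 0.139 and 0.158. Their part in the result was not tested.

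Probes of 12 genes lay within 500 kb of the TERT probe, and 10 of them were tested in each line. By the brightest probe of each gene 6 of 10 were called lower with the combination in MM.1S, where 31.5% of all probes were, with a median of -0.54. In RPMI-8226 it was 2 of 10, where 5.45% of all probes were, with a median of -0.63. Limma called 0 of these probes higher in either line. CLPTM1L, the neighbour at 65.1 kb, fell by 0.89 in RPMI-8226 (limma adjusted p 0.0186, range 0.00135 to 0.110) and by 0.63 in MM.1S (adjusted p 0.00750). Its call in RPMI-8226 was lost without replicate 1 of DMSO (0.0769) or replicate 1 of the combination (0.110), with no filter (0.0573) or with only the compared groups (0.0709), and in MM.1S under quantile normalization (0.329). NKD2, which lies to the other side at -215 kb, fell by 0.93 in RPMI-8226 (limma adjusted p 0.0244, range 0.00478 to 0.0942) and by 1.37 in MM.1S (adjusted p 0.00422). NKD2 was not called in RPMI-8226 without replicate 1 (0.0942) or 2 (0.0671) of DMSO or replicate 1 (0.0642) or 2 (0.0894) of the combination, nor under quantile normalization (0.0702), with no filter (0.0680) or with only the compared groups (0.0683). TRIP13 fell by 1.92 in MM.1S (adjusted p 1.78e-04) and was at -0.66 in RPMI-8226 (adjusted p 0.0540, called in 6 settings, with the block at 0.0466), where a dimmer TRIP13 probe was called lower (-0.94, adjusted p 0.0162). SLC6A18, at -8.9 kb the closest gene to the TERT probe, was at -0.17 in RPMI-8226 and 0.02 in MM.1S and was called in neither. Its probe was close to background, which it exceeded on 6 and 7 of the 8 arrays, so a fall could hardly be seen.

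Of the other 6 neighbours, none was called in RPMI-8226, where 5.45% of all probes were called lower and 7.1% higher. In MM.1S 3 of them were called lower, where 31.5% of all probes were. LOC728613 fell by 0.63 in MM.1S (limma adjusted p 0.00322) and was at -0.60 in RPMI-8226 (adjusted p 0.0801), where leaving out either GSK126 array (0.0495) or a single fit over both lines (0.0128) gave a call. SLC12A7 fell by 0.55 in MM.1S (adjusted p 0.00449), though not under quantile normalization (0.104), and was at -0.16 in RPMI-8226. BRD9 fell by 0.44 in MM.1S (adjusted p 0.0108), though not without replicate 1 of DMSO (0.0596) or replicate 2 of the combination (0.0518) or under the percentile over detected probes (0.107), and was at -0.34 in RPMI-8226. LPCAT1 was at -0.28 in MM.1S (adjusted p 0.0585), called in 3 other settings and when either GSK126 array was left out (0.0492), and at -0.93 in RPMI-8226 (adjusted p 0.119), called in 2 other settings and without replicate 2 of DMSO (0.0197). SLC6A3 was at -0.54 in MM.1S (adjusted p 0.211), called without replicate 1 of the combination (0.0475), and at -0.39 in RPMI-8226. ZDHHC11 was at 0.35 in MM.1S (adjusted p 0.0788), called higher in several settings, the percentile over detected probes among them (0.57, adjusted p 0.0201), and at -0.87 in RPMI-8226 (adjusted p 0.0950, called in 4 settings, with the block at 0.0169). A dimmer ZDHHC11 probe was called higher in MM.1S (0.84, adjusted p 0.0494) and lower in RPMI-8226 (-0.98, adjusted p 0.0462).

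**Figure D5:**
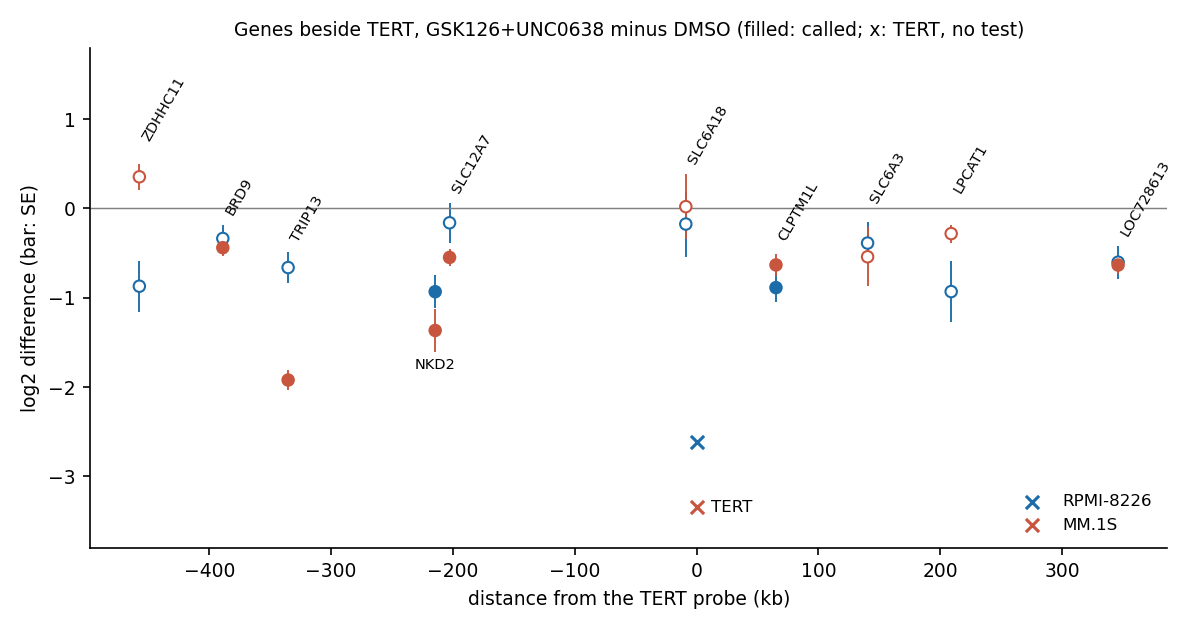
Difference from DMSO with the combination for the genes within 500 kb of the TERT probe, against distance from it. Filled marks are called genes, and TERT itself is drawn without a test.

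The profile of TERT over the 16 arrays, centred within each line, was compared with those of 17710 other probes, as a description with no test because TERT was chosen by part of it. The median r was 0.257, and 459 probes had an r of 0.9 or more. Among the members DKC1 had an r of 0.864, above 94.4% of the probes, and NHP2 0.855, above 93.5%. TERF1 had 0.690, WRAP53 0.668 and NOP10 0.525. POT1, TERF2IP and TERF2 had 0.206, 0.180 and 0.144, below the median probe, and TINF2 ran against TERT with -0.829. By r over the 6 treated group means POT1, TERF2IP and TERF2 had -0.390, -0.269 and -0.248 instead, and TINF2 had -0.952. MYC had 0.939 over the 16 arrays, above 99.6%. The 5 probes most like TERT were those of TMEM161A (0.987), C5orf25 (now SIMC1, 0.972), ADA (0.970), HNRNPA1L2 (0.964) and ADCK3 (now COQ8A, 0.963), none of which is a telomerase gene. TMEM161A was at -0.59 with the combination in RPMI-8226 and -0.82 in MM.1S, and ADA at -0.75 and -0.70. C5orf25 was at -0.62 and -0.95, HNRNPA1L2 at -0.39 and -0.59, and ADCK3 at -0.52 and -0.84.

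The partners of TERT thus followed it unevenly. In MM.1S DKC1 and NHP2 fell with the combination under every setting, and NHP2 with UNC0638 alone. NOP10, WRAP53 and TERF1 were called lower there in calculations that turned on the scale or on single arrays. TERF2, TERF2IP, POT1 and TINF2 were not called with the main settings. TINF2 was called higher under quantile normalization, under the percentile over detected probes and with a trended prior. The result for POT1 turned on replicate 1 of DMSO. In RPMI-8226, where TERT itself was -2.62 from DMSO with the combination, none of the 9 was called with the main settings. In that comparison only 5.45% of all probes were called lower and 7.1% higher, so the lack of calls says little about the members. A single fit over both lines called NHP2 lower in RPMI-8226. The 5 calls in MM.1S were made where 31.5% of all probes were called lower, the box C/D genes among them.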

How the data were processed

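The intensity of each spot was taken as the authors deposited it, from scanner files of Agilent Feature Extraction 10.7, which had subtracted background and left no normalization between arrays. Values were put on the log2 scale with no pseudocount, scaled by the 75th percentile of their array, and averaged over the spots of each probe, outliers aside. The authors' paper names a program for the arrays and a filter on changes over 2-fold, but no test.

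Tests used lmFit and eBayes of limma 3.58.1 in R 4.3.3 with version 1.17.8 of data.table, with the adjustment of Benjamini and Hochberg at 0.05 and 95% intervals. Comparisons within a line used its 8 arrays, and differences between lines used all 16. Tables and drawings used Python 3.11.15, pandas 2.3.3, numpy 2.4.6 and matplotlib 3.10.9. The members and lists were chosen with earlier results of these data known. The lists were telomerase assembly and RNA processing (15 of 15 names on the array), telomere capping and replication (21 of 21), box C/D particles (8 of 8), factors known at the TERT promoter (21 of 21), proliferation (10 of 10), drug targets (3 of 3), and markers of plasma cells (10 of 11), T cells (4 of 4), myeloid cells (3 of 4), and epithelial and stromal cells (5 of 5). A further marker list is not reported here.

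Genes named in the text were all members, from each of the first 5 lists the genes called in the same direction in both lines or else the 3 with the largest change, the tested neighbours within 500 kb of TERT, the 5 genes with the highest r with TERT, and MYC, MKI67, EZH2 and EHMT2. GAR1, TERC, ACD and HIF1A were named besides, as were some genes that the block added to a count and some marker genes that were called or led a sum.

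Replicate number was checked as a pairing by correlating, between groups, the difference of replicate 1 from replicate 2 over all kept probes. In RPMI-8226 6 of 6 pairs were over 0.1 (0.254 to 0.415), so blocked values stand beside the results where they differ, and in MM.1S 5 of 6 were (0.0847 to 0.225). Alternatives tried were quantile normalization, normexp with an offset of 50, the percentile over detected probes, no filter, a filter on all 8 arrays, the deposited value table, the replicate block, a single fit over all 16 arrays, a fit of only the compared groups, a trended prior, the mean over probes, and each array left out in turn.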

Additional observations from a re-analysis of the deposited data

Results flagged for a closer look

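For the members, the genes taken by rule from the first 5 lists, MKI67, EZH2 and EHMT2, 6 effects differed between the lines. Each is given as RPMI-8226 minus MM.1S by limma over 16 arrays. Genes of the marker lists are outside this count. RRM2 and CCNB1 were picked for a large change with the combination in either line. MYC met the same rule, though it was to be named in any case. Such a choice favours a difference between the lines, so these calls are no independent test. For the effect of UNC0638 0.969% of all probes were called higher. With the combination 7.39% of all probes were called higher. So were 2 of 3 tested T-cell genes, 1 of 1 myeloid gene and 1 of 1 epithelial or stromal gene. The 6 were as follows. NHP2 differed by 0.70 in the effect of the combination (adjusted p 0.0138), a call lost for 1 of 16 arrays. MYC differed by 1.18 in the effect of UNC0638 (adjusted p 0.0266), a call lost for 6 of 16 arrays left out in turn (0.0542 to 0.0980), and by 1.09 in that of the combination (adjusted p 0.0110). EZH2 differed by 0.79 with the combination (adjusted p 0.0418), a call lost for 13 of 16 arrays left out in turn. RRM2 differed by 0.94 with the combination (adjusted p 0.0423), a call lost for 10 of 16 arrays. CCNB1 differed by 0.79 with the combination (adjusted p 0.0123), a call lost for 1 of 16 arrays.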

How the results depend on the processing

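Each array held 1 culture and each treatment kept 1 column of the slides, so treatment cannot be told from column, replicate from row, or cell line from slide. With 2 arrays per group, calls in RPMI-8226 turned on single arrays, and small effects go undetected. Against DMSO, leaving out 1 array also lowered the calls over all probes for the combination in each line and for UNC0638 in MM.1S. Calls between the lines for the combination fell likewise when that array was from MM.1S. Shares of all probes given with the results use all arrays, so they are no background for counts with an array left out. Intensities of dim probes are compressed, and a change shared by most probes is removed by the scale. RNA was measured and protein, telomerase activity and telomere length were not.

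Of 7621 repeats of 381 results under other settings, 7087 gave the same answer, 211 lost a call, 103 gained one, 219 moved a value and 1 turned a called direction. Among those with the same answer 189 changed the sign of a value that was called in neither setting. The cause was not tested for any of the values that follow, which are for the combination against DMSO. Lower calls over all probes in MM.1S were 7384 of 25100 under quantile normalization and 5028 under the percentile over detected probes. With no filter they were 6122 of 50599. In RPMI-8226, of 23196, they were 1436 under quantile normalization, 1745 under normexp, 608 under the percentile over detected probes and 2494 with the block. They were 4005 there with 1 fit over all 16 arrays, 357 with only the compared groups and 2280 with a trended prior. Partners of TERT called in RPMI-8226 were 1 lower with 1 fit over all 16 arrays. Partners called higher in MM.1S were 1 under quantile normalization, 1 under the percentile over detected probes and 1 with a trended prior. Partners called lower in MM.1S were 3 under quantile normalization, 2 under the percentile over detected probes, 3 with no filter, and 3 to 5 with arrays left out. Partners differing between the lines were 2 with the block and 2 with a trended prior, and 0 to 1 with arrays left out. Assembly and RNA processing genes called lower in RPMI-8226 were 0 under quantile normalization, 2 under normexp, 0 under the percentile over detected probes, 0 with no filter, 3 with 1 fit over all 16 arrays, 0 with only the compared groups, 2 with a trended prior, and 0 to 1 with arrays left out. Capping and replication genes called lower in RPMI-8226 were 1 under quantile normalization, 0 under the percentile over detected probes, 0 with no filter, 4 with the block, 6 with 1 fit over all 16 arrays, 0 with only the compared groups, and 0 to 2 with arrays left out. Capping genes called higher in MM.1S were 1 with no filter, 1 with 1 fit over all 16 arrays, and 1 to 3 with arrays left out. Box C/D genes called lower in RPMI-8226 were 0 under quantile normalization, 3 under normexp, 0 under the percentile over detected probes, 0 with no filter, 2 with a filter on all 8 arrays, 3 with the block, 6 with 1 fit over all 16 arrays, 0 with only the compared groups, 6 with a trended prior, 0 with the mean over probes, and 0 to 1 with arrays left out. Promoter factors called higher in RPMI-8226 were 2 with the block, 0 with only the compared groups, and 0 to 1 with arrays left out. Promoter factors called lower there were 2 under normexp, 3 with the block, 3 with 1 fit over all 16 arrays, 2 with a trended prior, 1 with the mean over probes, and 0 to 1 with arrays left out. Promoter factors called higher in MM.1S were 2 under quantile normalization, 3 under the percentile over detected probes, and 0 to 1 with arrays left out. Proliferation genes called lower in RPMI-8226 were 1 under normexp, 1 with a filter on all 8 arrays, 1 with the block, 1 with 1 fit over all 16 arrays, 1 with a trended prior, 1 with the mean over probes, and 0 to 1 with arrays left out.

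The difference of TERT in MM.1S was -3.48 under quantile normalization, -2.31 under normexp and -3.13 under the percentile over detected probes. NOP10 in MM.1S was at 0.12 under quantile normalization (limma adjusted p 0.274). By r over 6 group means 1 of the 5 genes most like TERT was shared. In MM.1S, where the pairing check failed for 1 of 6 pairs, the block gave 3 partners lower with UNC0638 in place of 1, adding DKC1 (adjusted p 0.0360) and NOP10 (0.0347). The block changed no call of a partner in RPMI-8226. The percentile over detected probes moved the higher share of calls in MM.1S to 63.0% from 43.3% for UNC0638 and to 84.2% from 67.6% for GSK126.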
